A study of Mus musculus with 11 samples.

Results

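The 41 genes described here are markers of T cells and of immune cells (leukocytes) in general. They were read in Col1a1GFP+ cells, marked by a reporter of a type I collagen gene and sorted from the mouse spinal cord. The genes were chosen by name from a list of T cell and pan-leukocyte symbols, with earlier results of these data known. Comparisons of the set with all genes are therefore descriptions and no independent test. All 41 were found among the 37991 genes of the count table. T cells recognise antigen through a T cell receptor held in a complex with the CD3 proteins, which passes the signal on through the kinases Lck and Zap70 and the adaptor Lat. The co-receptors CD4 and CD8 divide them into helper and cytotoxic kinds, and helper cells divide further by master regulators such as Tbx21 (T-bet, Th1 cells) and Foxp3 (regulatory T cells). In experimental autoimmune encephalomyelitis, EAE for short, T cells that react to myelin enter the spinal cord, which makes it a widely used model of multiple sclerosis.

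Libraries of 4 groups were compared. Sorted control libraries (n = 3) came from healthy C57BL/6 Col1a1GFP mice, in which the Col1a1 promoter drives green fluorescent protein (GFP). D5 (n = 3) and D10 (n = 3) libraries came from mice of the same strain 5 and 10 days after EAE symptoms began, and each sorted library pooled 2 to 3 cords. Whole cord libraries (n = 2) each held the homogenate of 1 cord from a healthy C57BL/6 mouse without the reporter, and their labels repeat the sorting protocol although the design text describes homogenate. Totals ran from 7123291 to 12238751 counts per library, so that 3 counts amounted to 0.245 to 0.421 CPM (counts scaled to a library total of 1000000). Values below stand in the order control replicates 1, 3 and 4, D5 replicates 1 to 3, D10 replicates 1 to 3 and whole cord replicates 1 and 3. D5 and D10 were compared with the same 3 control libraries. No library of pure leukocytes was analysed here, so the values are shares of counts, and neither a share of cells nor the RNA per cell can be read from them. In particular, fewer cells of a type and less RNA per cell cannot be told apart.

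Nearly the whole set was higher in EAE than in health. At D5, 34 of the 38 members that passed the expression filter rose, and 0 fell. Over all 15972 genes tested the background was 13.2% called higher and 10.7% called lower (23.9% in either direction). At D10, 29 of the same 38 rose and 0 fell, against a background of 8.38% called higher and 4.99% called lower (13.4% in either direction). The filter used all 9 sorted libraries, so a member could pass it through its EAE counts alone. For members at or near 0 counts in control, such as Icos, Cd6 and Il7r, a fall could not have been called. The absence of falls therefore says nothing about them. The median log2 fold change of the 38 members was 4.73 at D5 and 3.76 at D10, or 4.67 and 3.52 with members at 0 counts in control set to their lower bound, while the median over all genes was 0.00 and 0.01. Every D5 library lay above every control library for 35 of 38 members (23.0% of all genes), and every D10 library did so for 31 (14.9% of all genes). Cd247, Cd48, Cxcr6, Foxp3 and Ltb were called at D5 and not at D10. The members not tested were Cd8b1, Cxcr3 and Prf1, and those tested but called at neither time were Cd8a, Skap1, Cd27 and Nkg7. Without control replicate 1 the D5 count was 38, since Skap1, Nkg7, Cd8b1 and Cxcr3 were then called as well, and without D10 replicate 3 the D10 count was 24.

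The size of many rises differed with single control libraries. With 1 control library left out, the fold change moved by over 1.5 times for 19 of the 34 members called at D5 and 18 of the 29 called at D10. For most of the shared leukocyte genes the library was control replicate 1. Without it the log2 fold changes at D5 and D10 were 5.08 and 4.13 for Ptprc, 7.02 and 6.21 for Cd53, 5.28 and 4.19 for Coro1a, 4.76 and 3.78 for Itgal, 4.83 and 4.10 for Itgb2 and 4.12 and 3.44 for Laptm5. They were 5.71 and 4.23 for Il2rg, and Cxcr6 stood at 3.82 at D5. Without control replicate 3 they were 8.06 and 6.86 for Cd2 and 5.45 and 4.61 for Lcp1. Without control replicate 4 they were 6.23 and 5.09 for Cd28, Ltb stood at 6.46 at D5 and Ctla4 at 6.38 at D10. All these values lay above those of the fit of all libraries. Leaving out another control library lowered the values of Cd2, Cd28, Cd53, Il2rg, Itgb2, Lcp1 and Ltb, by at most 0.63. Ccl5, Ccr7, Cd3d, Cd3e, Cd3g, Il2rb and Zap70 had all their control counts in 1 library, so that no fold is given for them without it except as a fitted value, which depends on the prior count and is no bound. Of the D10 libraries, replicate 3 held most counts of Gzmb, whose fitted value was 7.58 with it and 6.28 without.

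**Figure D1:**
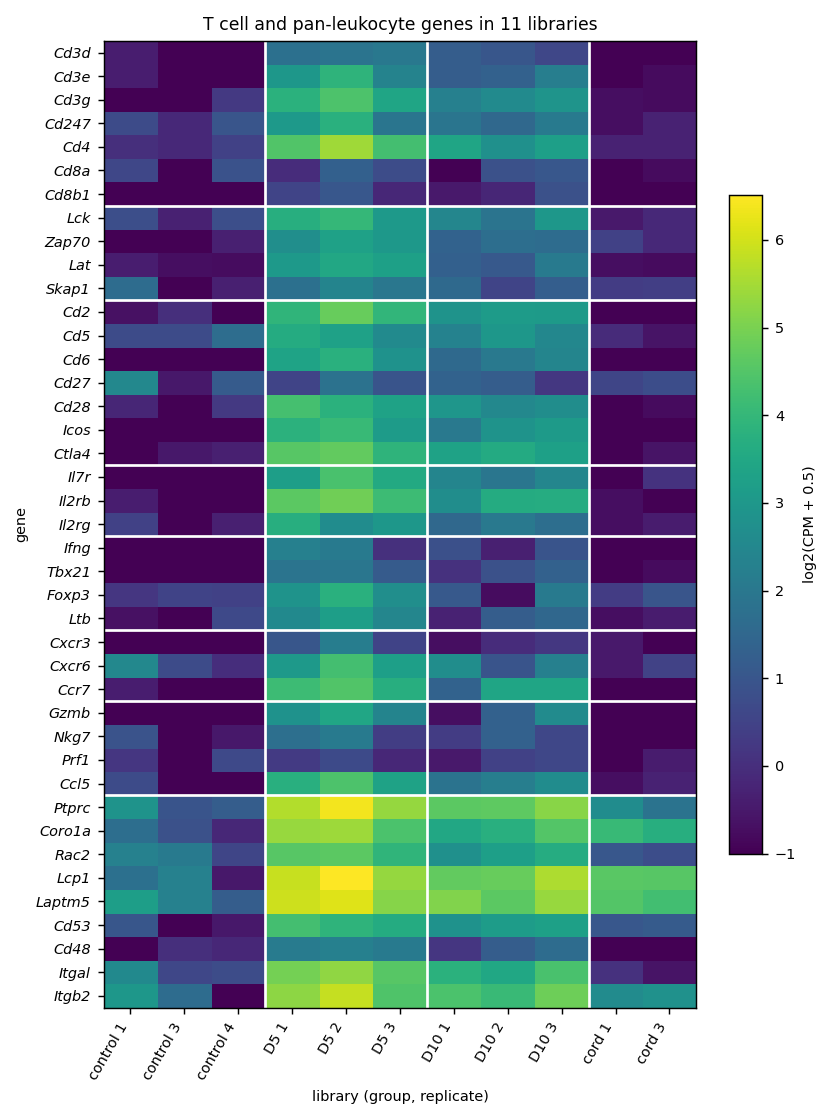
Level of each of the 41 genes (rows, grouped by role with white lines) in each of the 11 libraries (columns), as colour on a scale of log2(CPM + 0.5). The 3 D5 columns are the brightest for most genes, the D10 columns lie between them and the control columns, and the whole cord columns are dark except for some shared leukocyte genes in the bottom block.

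The receptor complex was read through 7 members. Cd3d, Cd3e and Cd3g encode the CD3 chains that carry the antigen receptor, and Cd247 encodes its zeta chain. Cd3g read 0, 0 and 0.68 CPM in control, 13.3, 20.9 and 10.1 CPM at D5, 4.33, 5.53 and 6.91 CPM at D10 and 0.11 and 0.0817 CPM in whole cord. Cd3e read 0.252, 0 and 0 CPM in control, 7.42, 14.3 and 4.61 CPM at D5, 1.84, 2 and 4.12 CPM at D10 and 0 and 0.0817 CPM in whole cord. Cd3d read 0.252, 0 and 0 CPM in control, 2.95, 3.23 and 3.56 CPM at D5, 1.84, 1.53 and 1 CPM at D10 and 0 in every whole cord library. All 3 CD3 genes were at or near 0 in health, and for each of them every D5 and every D10 library lay above every control library. Against control, Cd3g was higher by a log2 fold change of 5.83 ± 0.75 (SE) at D5 (adjusted p = 0.00023) and 4.50 ± 0.75 at D10 (adjusted p = 0.00265). All 7 of its control counts were in control replicate 4, and without that library, with control at 0, the fitted values were 9.97 and 8.65. Cd3e and Cd3d each had only 2 counts over the whole control group. Their called rises are therefore given as count ratios, which for Cd3e were 121 (95% counting interval 32.9 to 1002) at D5 and 36.6 (95% counting interval 9.77 to 307) at D10. For Cd3d the ratios were 45.2 (95% counting interval 12.1 to 380) and 20.5 (95% counting interval 5.32 to 175), and its D10 call was lost without control replicate 4. These intervals cover counting error only. Cd247 read 1.13, 0.412 and 1.46 CPM in control, 7.78, 13.1 and 3.29 CPM at D5, 3.25, 2.38 and 3.79 CPM at D10 and 0.11 and 0.327 CPM in whole cord. It rose at D5 (log2 2.98 ± 0.61, adjusted p = 0.00396), while its D10 value of 1.70 ± 0.60 was not called (adjusted p = 0.0819). Trac, the constant segment of the receptor's alpha chain and no member of the set, had 0 counts in all 3 control libraries, 100, 148 and 65 counts at D5, 22, 23 and 40 at D10, and 10 and 14 in healthy whole cord.

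Of the co-receptors, Cd4 rose at both times, while Cd8a was called at neither. Cd4 read 0.504, 0.412 and 0.874 CPM in control, 21.8, 42.8 and 18.8 CPM at D5, 10.3, 6.39 and 9.03 CPM at D10 and 0.33 and 0.327 CPM in whole cord. It rose by 5.48 ± 0.44 at D5 (adjusted p = 3.06e-05) and by 3.86 ± 0.44 at D10 (adjusted p = 0.000357), with no overlap between either EAE group and control. Cd8a, the alpha chain of CD8, read 1.01, 0 and 1.36 CPM in control, 0.471, 1.97 and 1.19 CPM at D5, 0, 1.33 and 1.56 CPM at D10 and 0 and 0.0817 CPM in whole cord. Its D5, D10 and control libraries overlapped, and it was not called at D5 (log2 0.59 ± 1.20, adjusted p = 0.763) or at D10 (0.36 ± 1.20, adjusted p = 0.885). Cd8b1, the beta chain found on most conventional cytotoxic T cells, read 0 in every control library, 0.943, 1.54 and 0.395 CPM at D5, 0.217, 0.381 and 1.34 CPM at D10 and 0 in every whole cord library. It was too low to be tested, and against the floor of 3 counts over the control group it was at least 8.84-fold higher at D5 and at least 5.85-fold higher at D10. Per kb of principal transcript, the summed counts of Cd4 were 23.6 times those of Cd8a at D5 (95% counting interval 16.1 to 36.1) and 8.73 times at D10 (5.89 to 13.4). Against Cd8b1 the same ratio was 13.7 at D5 (8.99 to 22.1) and 6.44 at D10 (3.99 to 11.1). The D10 ratios moved with single libraries, that to Cd8a being 5.32 without D10 replicate 1, which had 0 counts of Cd8a, and that to Cd8b1 being 12.9 without D10 replicate 3. In the controls, where Cd4 had 17 counts and Cd8a 22, the Cd4 to Cd8a ratio was 0.778 (0.388 to 1.53). Cd8b1 had 0 counts there, so the control ratio to it has only a lower 95% limit, 1.97. The ratio in control thus differed with the CD8 gene used. Cd4 is also made by some macrophages and microglia, and whether they add to these counts was not tested.

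The proximal signalling genes were Lck, the kinase bound to CD4 and CD8, Zap70, the kinase that docks on the phosphorylated zeta chain, Lat, the adaptor it phosphorylates, and Skap1, an adaptor that links the receptor to integrins. Lck read 1.26, 0.309 and 1.26 CPM in control, 12.5, 15.4 and 7.78 CPM at D5, 4.98, 3.24 and 7.36 CPM at D10 and 0.22 and 0.409 CPM in whole cord. Zap70 read 0, 0 and 0.291 CPM in control, 6.01, 9.41 and 7.51 CPM at D5, 2.06, 2.76 and 2.68 CPM at D10 and 0.88 and 0.409 CPM in whole cord. Lat read 0.252, 0.103 and 0.0971 CPM in control, 7.9, 10.9 and 9.22 CPM at D5, 1.95, 1.62 and 3.68 CPM at D10 and 0.11 and 0.0817 CPM in whole cord. In these 3 genes all EAE libraries lay above all control libraries, and all D10 libraries lay below all D5 libraries. Lck rose by 3.65 ± 0.54 at D5 (adjusted p = 0.000562) and 2.52 ± 0.53 at D10 (adjusted p = 0.00891, but 0.0505 by limma voom), and Lat by 5.88 ± 0.63 (adjusted p = 8.97e-05) and 4.00 ± 0.63 (adjusted p = 0.00213). Zap70, called at both times, had 3 control counts, and its count ratio was 70.3 (95% counting interval 23.7 to 344) at D5 and 23.4 (95% counting interval 7.69 to 116) at D10. Skap1 was called at neither time, with libraries of 0 to 2.64 CPM in control, 2.95 to 4.77 CPM at D5 and 0.953 to 2.49 CPM at D10.

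Promoter sequence was available in RefSeq (GRCm38.p6) for 28 of the 41 members, in 35 windows of the 250 bases before a transcript start. Of 11 short motifs searched on both strands, the ETS motif CAGGAAGT, read by a family of transcription factors active in blood cells, was found before 8 of the 28 members, which is 28.6%, against 3.13% of all 27025 genes with a window. The 8 were Cd247, Cd3e, Cxcr3, Il7r, Lck, Prf1, Ptprc and Tbx21, among them Cxcr3 and Prf1, which were too low to be tested. A stretch of 120 bases that holds it is shown for 3 genes of the receptor pathway and for Ptprc, the gene of the pan-leukocyte protein CD45, because these are the members by which T cells and leukocytes are read here. They run 5′ to 3′ along the gene, with the motif, or its reverse complement ACTTCCTG, in capitals.
Cd3e, chr9:45009612-45009731, minus strand: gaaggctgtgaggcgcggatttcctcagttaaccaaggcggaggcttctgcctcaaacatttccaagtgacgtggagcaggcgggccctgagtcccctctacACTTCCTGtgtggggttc
Cd247, chr1:165788561-165788680, plus strand: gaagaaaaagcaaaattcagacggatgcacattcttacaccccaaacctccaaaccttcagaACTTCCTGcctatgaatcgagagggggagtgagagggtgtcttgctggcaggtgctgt
Lck, chr4:129573642-129573761, minus strand: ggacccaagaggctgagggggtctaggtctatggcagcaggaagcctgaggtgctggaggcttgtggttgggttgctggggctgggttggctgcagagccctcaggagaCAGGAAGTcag
Ptprc, chr1:138175306-138175425, minus strand: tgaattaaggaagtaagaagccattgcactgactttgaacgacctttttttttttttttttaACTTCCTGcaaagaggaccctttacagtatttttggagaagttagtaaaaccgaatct
The motif's first base lay 18 bases before the start of Cd3e, 58 before those of Cd247 and Ptprc and 11 before that of Lck. It was singled out after the counts of all 11 motifs were seen, and the match describes letters in a window and no binding. The other motifs were found before fewer members. They were GGAAGTG, which overlaps the ETS motif (21.4% of members, 9.77% of all genes), TGTGGTT for RUNX (7.14% and 5.08%), GGTGTGA for T-box factors (7.14% and 3.84%), and a strict and a looser NF-kB motif (GGGA, any base, TTTCC and GGG, any 3 bases, TTCC, 3.57% each, against 0.414% and 5.31%). The interferon element (GAAA, any 2 bases, GAAA) was before no member (3.46% of all genes). TTCNNNGAA for STAT factors was before 21.4% of members (8.13%), GGAAAA for NFAT before 21.4% (22.9%), TGANTCA for AP-1 before 3.57% (7.82%) and AGATAA for GATA factors before 10.7% (11.4%).

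Costimulatory and adhesion genes, which set how strongly a T cell answers its antigen, followed. Of the 7 read, 6 rose at both times. Ctla4, an inhibitory receptor of activated and regulatory T cells, read 0, 0.206 and 0.291 CPM in control, 23.2, 25.5 and 14.4 CPM at D5, 9.64, 11.5 and 9.25 CPM at D10 and 0 and 0.163 CPM in whole cord. Icos, an inducible costimulator, read 0 in every control library, 13.8, 16.1 and 8.3 CPM at D5, 3.58, 6.77 and 8.03 CPM at D10 and 0 in every whole cord library. Cd2, an adhesion receptor of T and natural killer (NK) cells, read 0.126, 0.514 and 0 CPM in control, 14.6, 26.8 and 14.9 CPM at D5, 6.83, 8.2 and 8.03 CPM at D10 and 0 in every whole cord library. These 3 genes had at most 0.514 CPM in any healthy library and at least 3.58 CPM in every EAE library. Ctla4 rose by 6.78 ± 0.50 at D5 (adjusted p = 1.59e-05) and 5.79 ± 0.50 at D10 (adjusted p = 8.51e-05). Cd2 rose by 6.35 ± 0.60 (adjusted p = 6.44e-05) and 5.13 ± 0.60 (adjusted p = 0.000388). Icos was called at both times and, with no control count, was at least 119-fold higher at D5 and at least 57.2-fold higher at D10.

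Cd28, the main costimulatory receptor of naive T cells, read 0.378, 0 and 0.68 CPM in control, 19.2, 13.3 and 9.49 CPM at D5, 7.26, 5.15 and 5.91 CPM at D10 and 0 and 0.0817 CPM in whole cord. Cd6, an adhesion receptor, read 0 in every control library, 9.78, 13.2 and 6.59 CPM at D5, 2.49, 3.62 and 4.91 CPM at D10 and 0 in every whole cord library. Cd5, which dampens receptor signalling, read 1.13, 1.13 and 2.72 CPM in control, 11.8, 9.41 and 5.53 CPM at D5, 4.55, 7.43 and 5.13 CPM at D10 and 0.44 and 0.163 CPM in whole cord. Again no EAE library overlapped a control library. Cd28 rose by 5.25 ± 0.63 (adjusted p = 0.000159) and 4.11 ± 0.62 (adjusted p = 0.00175), and Cd6 was called and at least 91.2-fold and 34.1-fold higher. Cd5 had counts in every control library and rose by 2.40 ± 0.47 (adjusted p = 0.00322) and 1.82 ± 0.47 (adjusted p = 0.0231). Its D10 call was lost without control replicate 1 or 3 and without D10 replicate 2 or 3, and limma voom did not make it (adjusted p = 0.0514). Cd27, a receptor of naive and memory lymphocytes, was not called, with log2 values of -0.37 ± 0.90 and -0.56 ± 0.90. Its highest library of the 11 was control replicate 1 at 5.16 CPM.

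All 3 cytokine receptor subunits rose at both times. Il2rb, the beta chain shared by the IL-2 and IL-15 receptors, read 0.252, 0 and 0 CPM in control, 24.3, 29.1 and 17.3 CPM at D5, 5.96, 11.7 and 12 CPM at D10 and 0.11 and 0 CPM in whole cord. Il7r, the IL-7 receptor chain of naive and memory T cells, read 0 in every control library, 8.72, 20.1 and 11.3 CPM at D5, 4.88, 3.34 and 5.02 CPM at D10 and 0 and 0.572 CPM in whole cord. Il2rg, the common gamma chain, read 0.881, 0 and 0.291 CPM in control, 12.5, 5.76 and 7.38 CPM at D5, 2.38, 3.62 and 2.79 CPM at D10 and 0.11 and 0.245 CPM in whole cord. Every D10 library lay below every D5 library in each of them. Il7r was at least 122-fold higher at D5 and at least 40.6-fold higher at D10. Il2rg rose by 4.49 ± 0.76 (adjusted p = 0.00133) and 3.00 ± 0.76 (adjusted p = 0.0209), the latter call being lost without control replicate 4 or D10 replicate 3 and by limma voom (adjusted p = 0.0604). Il2rb, with 2 control counts, had a count ratio of 328 (95% counting interval 90.3 to 2714) at D5 and 139 (95% counting interval 38.2 to 1156) at D10.

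Of the 4 genes that mark effector fates, all rose at D5 and 2 at D10. Tbx21, the Th1 regulator, read 0 in every control library, 3.18, 3.37 and 1.71 CPM at D5, 0.542, 1.33 and 2.01 CPM at D10 and 0 and 0.0817 CPM in whole cord. Ifng, the Th1 cytokine interferon gamma, read 0 in every control library, 4.36, 3.65 and 0.527 CPM at D5, 1.3, 0.286 and 1.45 CPM at D10 and 0 in every whole cord library. Both had no count in control and were called at both times. Tbx21 was at least 25.7-fold higher at D5 and 12-fold at D10, and Ifng at least 26.9-fold and 9.1-fold, although in single libraries D5 replicate 3 held only 4 counts of Ifng and D10 replicate 2 only 3. The Ifng call at D10 was lost with any one of the control libraries, or D10 replicate 1 or 3, left out, and was not made by limma voom (adjusted p = 0.116). Of the other helper kind seen in EAE, the Th17 cytokine gene Il17a, no member of the set, had 0 counts in all 3 control libraries. It had 42, 15 and 7 counts at D5 and 1, 14 and 14 at D10. By edgeR's quasi-likelihood test it was called at both times (adjusted p = 0.00741 at D5 and 0.0347 at D10). Its calls were not followed through the alternative fits.

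Foxp3 read 0.629, 0.926 and 0.874 CPM in control, 6.83, 13.1 and 6.06 CPM at D5, 1.63, 0.0953 and 3.68 CPM at D10 and 0.77 and 1.47 CPM in whole cord. It rose at D5 by 3.37 ± 0.83 (adjusted p = 0.0108), all D5 libraries lying above all other libraries. At D10 its libraries ran from 1 to 33 counts and overlapped control (log2 1.19 ± 0.83, adjusted p = 0.389). Foxp3 shares its locus with Ccdc22 and Ppp1r3f on the opposite strand, and since the use of strand in counting is not given in the sources used here, its low counts in all 5 healthy libraries cannot be assigned to either strand. In all, 11 of the 41 members overlap another annotated gene, among them Cd247 with Pou2f1 and Coro1a with Bola2. Ltb, lymphotoxin beta, read 0.126, 0 and 1.07 CPM in control, 5.42, 8.7 and 5.01 CPM at D5, 0.325, 1.81 and 2.34 CPM at D10 and 0.11 and 0.245 CPM in whole cord. It rose at D5 (3.90 ± 0.97, adjusted p = 0.012) and was not called at D10 (1.88 ± 0.97, adjusted p = 0.23).

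Per kb of principal transcript, which allows levels of different genes to be set side by side, Cd3g stood at 14.5 ± 5.41 CPM per kb at D5, Ptprc at 12.2 ± 4.73, Cd4 at 8.95 ± 4.21 and Ccr7 at 8.69 ± 2.27 (SD, n = 3). The intervals of 1 SD of neighbours among these 4 genes overlap. Gzmb followed at 5.04 ± 2.00 CPM per kb, Ifng at 2.36 ± 1.69, Foxp3 at 2.26 ± 1.00 and Tbx21 at 1.11 ± 0.36. Cd8b1 at 0.648 ± 0.387 and Cd8a at 0.386 ± 0.239 CPM per kb were the lowest of those named. The CD3 chains differed among themselves, with Cd3e at 6.01 ± 3.42 and Cd3d at 2.01 ± 0.19 CPM per kb at D5. The order also changed with the length used. By union of exons Cd3g stood at 4.53 ± 1.69 and Cd4 at 6.90 ± 3.24 CPM per kb at D5. At D10, Cd3g stood at 5.47 ± 1.26, Cd4 at 2.76 ± 0.64 and Foxp3 at 0.469 ± 0.469 CPM per kb.

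**Figure D2:**
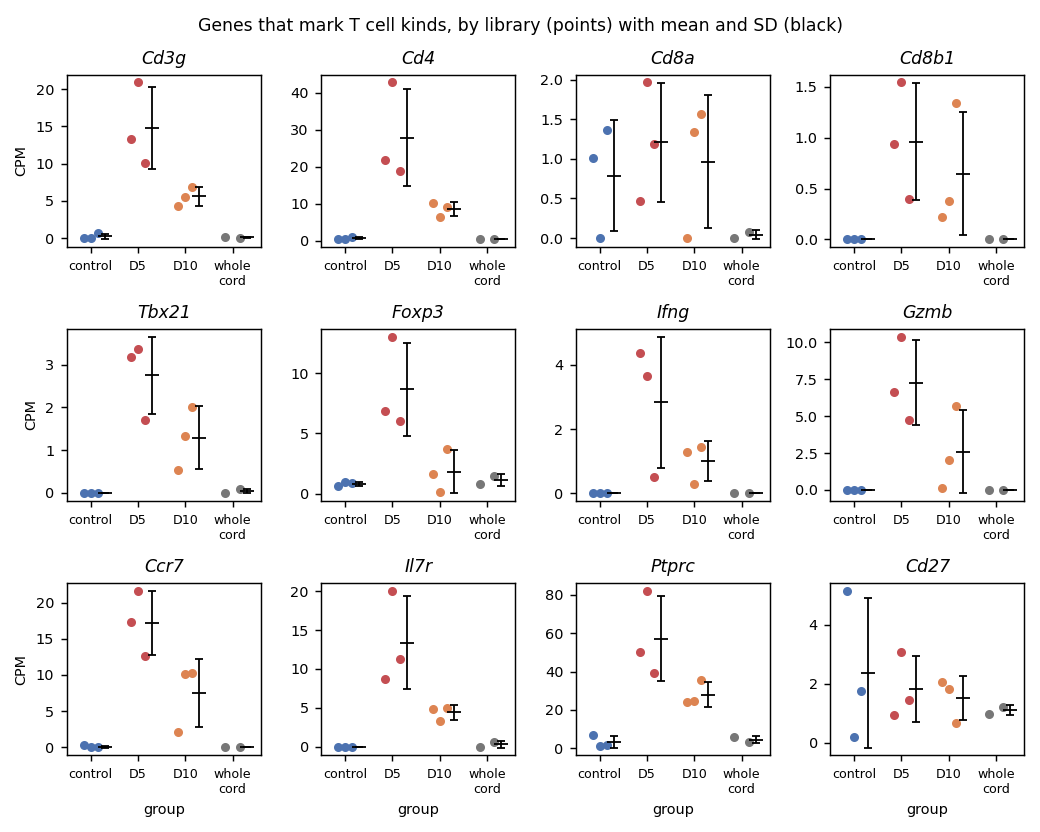
CPM of 12 genes that mark kinds of T cells or leukocytes, by group, with 1 point per library and the mean and SD in black (n = 3, and n = 2 for whole cord). Cd4 lies between 18.8 and 42.8 CPM at D5 while Cd8a stays at or under 1.97 CPM in every library, and the D5 points lie above the control points in every panel but those of Cd8a and Cd27.

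The homing receptors were Ccr7, which guides naive and central memory T cells and migrating dendritic cells, Cxcr3, typical of Th1 cells, and Cxcr6, found on effector T cells. Ccr7 read 0.252, 0 and 0 CPM in control, 17.3, 21.6 and 12.7 CPM at D5, 2.06, 10.1 and 10.3 CPM at D10 and 0 in every whole cord library. It was called at both times with 2 control counts, giving count ratios of 239 (95% counting interval 65.8 to 1983) and 106 (95% counting interval 28.9 to 879). Its lowest D10 library, replicate 1, had 19 counts beside 106 and 92 in the others. Cxcr6 read 5.16, 1.13 and 0.485 CPM in control, 7.66, 18.8 and 8.96 CPM at D5, 5.96, 1.43 and 4.35 CPM at D10 and 0.22 and 0.899 CPM in whole cord. It was the member with the weakest call at D5 (2.41 ± 0.74, adjusted p = 0.0317), and that call did not hold when control replicate 3 or 4, or D5 replicate 2 or 3, was left out. At D10 it was not called (0.90 ± 0.74, adjusted p = 0.475). Cxcr3, too low to be tested, had no control count and was at least 19.7-fold higher at D5 and at least 3.9-fold at D10.

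Of the 4 cytotoxic genes, Gzmb and Ccl5 rose at both times. Gzmb, the protease granzyme B, read 0 in every control library, 6.6, 10.4 and 4.74 CPM at D5, 0.108, 2 and 5.69 CPM at D10 and 0 in every whole cord library. Prf1, the pore protein perforin that delivers granzymes, had 0 to 1.07 CPM in control, 0.395 to 1.12 CPM at D5 and 0.217 to 1.00 CPM at D10, and was not tested. Nkg7, a granule protein of cytotoxic and NK cells, was not called (2.24 ± 1.06 at D5 and 1.37 ± 1.06 at D10). Gzmb was called at both times and was at least 66.7-fold higher at D5 and at least 23.7-fold at D10, its D10 libraries holding 1, 21 and 51 counts. With limma voom it was not called at D10 (adjusted p = 0.117). The chemokine gene Ccl5 read 1.13, 0 and 0 CPM in control, 13, 20.6 and 9.49 CPM at D5, 3.14, 4.1 and 5.8 CPM at D10 and 0.11 and 0.327 CPM in whole cord. It rose by 5.35 ± 0.85 at D5 (adjusted p = 0.000911) and 3.70 ± 0.85 at D10 (adjusted p = 0.014). All 9 of its control counts were in control replicate 1. Without that library the control group was at 0 and the fitted values were 9.97 and 8.33, while without control replicate 4 they were 4.71 and 3.07.

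**Figure D3:**
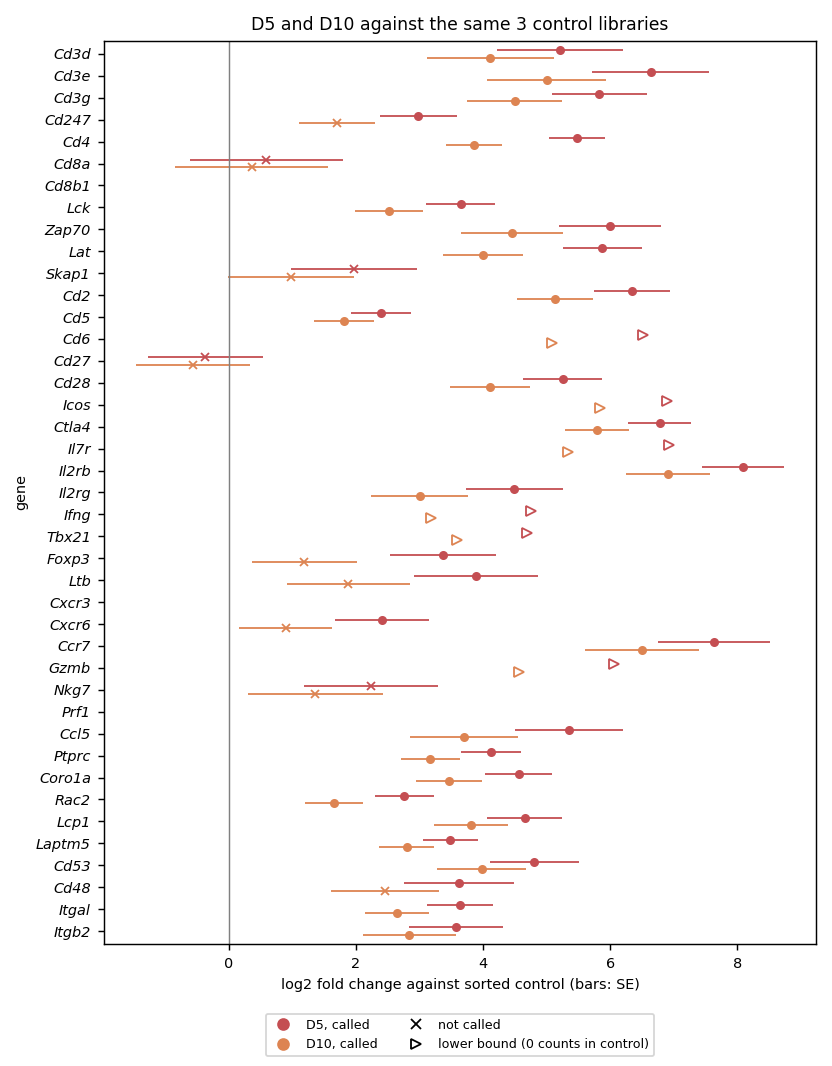
Log2 fold change with SE of each tested member at D5 (red) and D10 (orange) against the same 3 control libraries. Filled circles are called, crosses are not called, and open triangles are lower bounds for genes with 0 counts in control. In each of the 38 rows the D10 symbol lies to the left of the D5 symbol, and Cxcr3, Cd8b1 and Prf1 were not tested and have no symbol.

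The 9 shared leukocyte genes are used by T cells, B cells and myeloid cells alike, and all 9 rose at D5 and 8 at D10. Ptprc, which encodes the pan-leukocyte phosphatase CD45, read 6.8, 1.44 and 1.84 CPM in control, 50.0, 82.1 and 39.4 CPM at D5, 24.2, 24.4 and 35.5 CPM at D10 and 5.83 and 3.1 CPM in whole cord. Lcp1, the actin bundler L-plastin, read 2.9, 4.42 and 0.194 CPM in control, 58.6, 91 and 39.9 CPM at D5, 25.9, 26.5 and 47.8 CPM at D10 and 23.9 and 23.3 CPM in whole cord. Coro1a, an actin regulator, read 2.77, 1.34 and 0.388 CPM in control, 40.2, 42.1 and 20.4 CPM at D5, 10.8, 12.8 and 22.1 CPM at D10 and 16.4 and 12.5 CPM in whole cord. In each of these genes the EAE libraries lay above all control libraries. Ptprc rose by 4.13 ± 0.47 at D5 (adjusted p = 0.000134) and 3.17 ± 0.46 at D10 (adjusted p = 0.00137), Lcp1 by 4.66 ± 0.59 (adjusted p = 0.000218) and 3.81 ± 0.58 (adjusted p = 0.00178), and Coro1a by 4.56 ± 0.53 (adjusted p = 0.000142) and 3.46 ± 0.52 (adjusted p = 0.00162).

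Laptm5, a lysosomal protein of blood cells, read 8.81, 4.42 and 1.84 CPM in control, 60.6, 70.1 and 35.3 CPM at D5, 33.5, 23.9 and 40.7 CPM at D10 and 22.1 and 18.2 CPM in whole cord. Itgal, the alpha chain of the integrin LFA-1, read 5.41, 1.03 and 1.16 CPM in control, 30.4, 38 and 23.3 CPM at D5, 13.4, 10.6 and 20.0 CPM at D10 and 0.55 and 0.163 CPM in whole cord. Itgb2, its beta chain, read 7.3, 2.67 and 0 CPM in control, 37, 57.1 and 21.2 CPM at D5, 20.5, 16.5 and 28.8 CPM at D10 and 5.61 and 6.54 CPM in whole cord. No EAE library overlapped control in these either. Itgal rose by 3.64 ± 0.51 and 2.65 ± 0.51, and Itgb2 by 3.58 ± 0.74 and 2.84 ± 0.73 (adjusted p = 0.0222 at D10, a call lost without control replicate 3 or D10 replicate 3 and by DESeq2). Laptm5 rose by 3.49 ± 0.44 and 2.80 ± 0.43.

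Rac2, a GTPase of blood cells, read 4.41, 3.81 and 0.971 CPM in control, 23.2, 24 and 14.6 CPM at D5, 6.39, 8.96 and 12.2 CPM at D10 and 1.54 and 1.23 CPM in whole cord. Cd53, a tetraspanin of leukocytes, read 1.51, 0 and 0.194 CPM in control, 18.6, 14.2 and 11.9 CPM at D5, 6.61, 8.48 and 9.14 CPM at D10 and 1.54 and 1.72 CPM in whole cord. Cd48, a ligand of lymphocyte receptors, read 0, 0.514 and 0.388 CPM in control, 3.89, 4.35 and 3.82 CPM at D5, 0.65, 1.81 and 2.68 CPM at D10 and 0 in every whole cord library. Rac2 and Cd53 rose at both times, Rac2 by 2.76 ± 0.46 and 1.66 ± 0.45 (adjusted p = 0.0302 at D10) and Cd53 by 4.81 ± 0.70 and 3.98 ± 0.70. The D10 call of Rac2 was lost without control replicate 4 or D10 replicate 2 or 3. Cd48 rose at D5 (3.62 ± 0.86, adjusted p = 0.0091) but was not called at D10 (2.46 ± 0.85, adjusted p = 0.0761).

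Healthy whole cord served as a second reference, since it holds microglia, the resident macrophages of the cord. Of the 41 members 13 passed the filter in the comparison of sorted control with whole cord, and 3 of them, all shared leukocyte genes, were lower in the sorted cells, and 0 were higher, against a background of 28.7% called lower and 26.9% called higher. Coro1a was lower by a log2 difference of -3.58 ± 0.62 (adjusted p = 0.00202), Lcp1 of -3.52 ± 0.74 (adjusted p = 0.00519) and Laptm5 of -2.30 ± 0.53 (adjusted p = 0.00783). Ptprc was not called (-0.70 ± 0.74, adjusted p = 0.447). None of the T cell genes among the 13 was called in this fit, and 28 members were too low to be tested, with Cd6, Icos, Ifng, Gzmb and Cd8b1 at 0 in all 5 healthy libraries. The count of called members changed with single control libraries, since 6 were called without control replicate 1 (adding Ptprc and Cd53 lower and Cd5 higher) and 6 without control replicate 3 (adding Cd247, Cd5 and Itgal higher). One fit of all 11 libraries called 7, adding Cd5, Il7r, Itgal and Zap70. Of the 23 T cell genes outside the set 10 were tested in the fit of the 5 healthy libraries. In the sorted cells 4 of these were called higher and 2 lower, Trac among the lower ones. The background was the same, 26.9% called higher and 28.7% called lower.

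The share of counts that the set held covers only the part of the leukocyte signal that these 41 genes carry. It is no estimate of all leukocyte RNA in the sort. At D5 the 41 genes summed to 625 CPM, and 16 further pan-leukocyte genes to 607 CPM. In control these sums were 37.4 and 82.8 CPM. The 41 genes together took 0.00644%, 0.00250% and 0.00227% of the counts in the 3 control libraries, 0.0615%, 0.0833% and 0.0428% at D5, 0.0241%, 0.0250% and 0.0362% at D10 and 0.00830% and 0.00751% in whole cord. All D5 libraries lay above all D10 libraries, and these above all control libraries. The 11 T cell receptor complex and signalling genes summed to 4.95 ± 3.25 CPM in control, 97.5 ± 36.1 at D5 and 34.9 ± 7.76 at D10 (SD, n = 3) and 2.57 ± 0.06 in whole cord (n = 2). The 9 shared leukocyte genes summed to 22.2 ± 16.6, 318 ± 107, 165 ± 46.8 and 72.1 ± 7.55 CPM in the same order, the control mean of the latter being 13.3 CPM without control replicate 1. For every 1000 counts of 8 fibroblast genes, the T cell sum was 0.0416 to 0.308 counts in control, 1.35 to 3.56 at D5 and 0.663 to 0.876 at D10, while the fibroblast genes themselves held 2.37% to 2.97%, 3.89% to 5.17% and 3.21% to 6.54% of the counts.

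**Figure D4:**
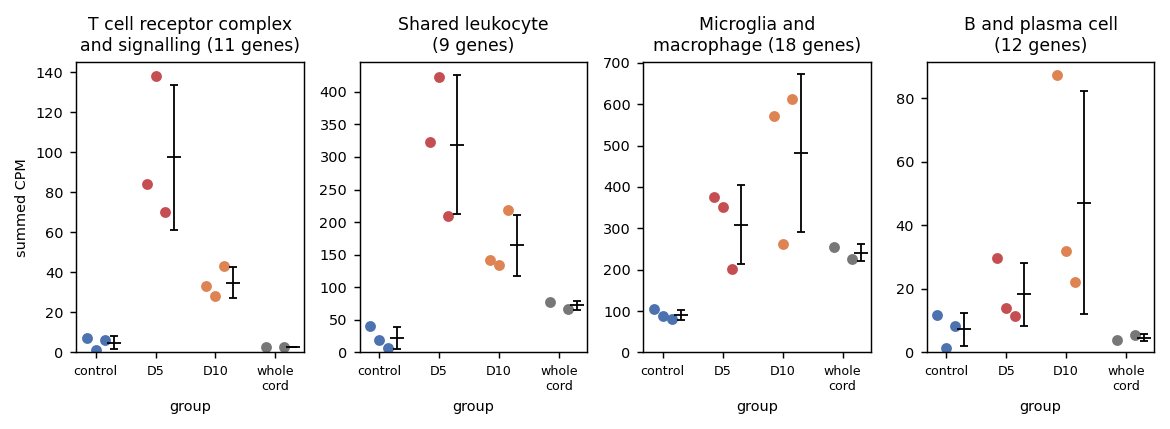
Summed CPM of 4 gene lists by group, with 1 point per library and the mean and SD in black (n = 3, and n = 2 for whole cord). The T cell and shared leukocyte sums have their highest means at D5, 97.5 and 318 CPM. The microglia and macrophage sum and the B and plasma cell sum have theirs at D10, but their D5 and D10 libraries overlap. They run over 201 to 376 CPM at D5 and 262 to 612 at D10, and over 11.3 to 29.6 and 22.2 to 87.1 CPM. Most B and plasma cell counts at D10 are those of Jchain.

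Between the EAE groups, every tested member had a fitted value below D5 at D10, but none passed the test. By edgeR's quasi-likelihood test 0 of 38 were called, against a background of 0.0563% called lower, 0.0751% called higher and 0.131% in either direction, while 22 of 38 had an unadjusted p under 0.05 (8.47% of all genes). That number was 6 without D5 replicate 2, 12 without D5 replicate 1, 10 without D10 replicate 1 and 11 without D10 replicate 2. With DESeq2, 3 members were called lower (Cd4, Lat and Il7r), with limma voom 0, and without the expression filter 1 (Cd4). The log2 fold change was below 0 for all 38, as for 49.3% of all genes, and its median was -1.14. In 26 of 38 members all D10 libraries lay below all D5 libraries, against 10.8% of all genes. Without D10 replicate 3 the number of all genes called rose from 21 to 218, and that of members stayed at 0. Cd4 differed by -1.62 ± 0.34 on the log2 scale (adjusted p = 0.125), Lat by -1.88 ± 0.46 (adjusted p = 0.189) and Foxp3 by -2.18 ± 0.77 (adjusted p = 0.449). The smallest differences were those of Cd27 at -0.19 ± 0.91 and Cd8a at -0.23 ± 1.18. By role, the median was -1.30 for the receptor complex, -1.33 for receptor signalling, -0.99 for costimulation, -1.49 for cytokine receptors, -1.72 for effector fate and -0.96 for the shared leukocyte genes.

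**Figure D5:**
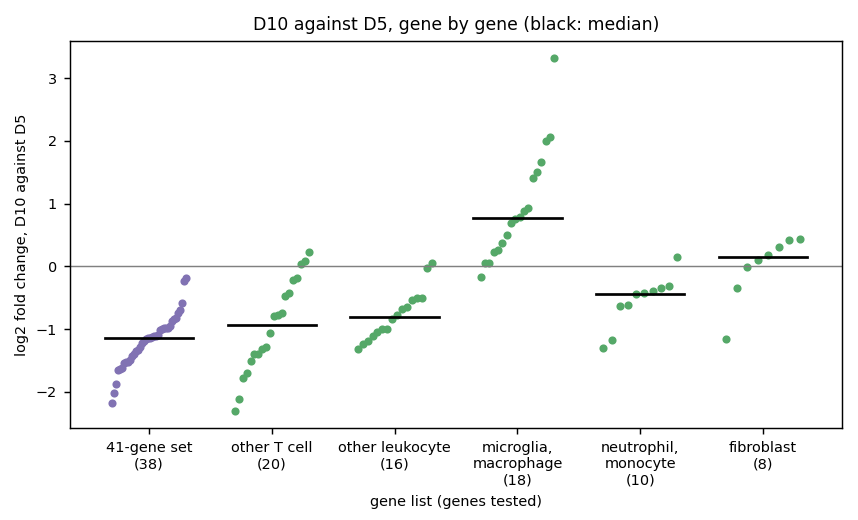
Log2 fold change at D10 against D5 for each tested gene (points) of the 41-gene set and of 5 other lists, with the median of each list in black. All 38 points of the set lie below 0 with a median of -1.14, while the microglia and macrophage list has a median of 0.77.

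Libraries of one group were not alike. D5 replicate 2 was the highest of the 9 sorted libraries for 34 of 41 members, and D5 replicate 3 was the lowest within D5 for 31. Within D10, replicate 3 was the highest for 29 members, and in a principal component analysis of the sorted libraries its score of 53.8 on component 1 (48.8% of the variance) fell in the D5 range of 51.9 to 59.2, while the other two D10 libraries scored between control and D5. Within control, replicate 1 was the highest for 26 members, and 12, 23 and 15 members were at 0 in replicates 1, 3 and 4.

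Other T cell genes, not in the set, were read beside it. Of 23 further T cell genes 20 were tested, and 15 rose at D5 and 12 at D10, with median log2 fold changes of 4.42 and 3.34. For this and the next lists, the share of all genes called higher was 13.2% at D5 and 8.38% at D10. These lists, like the set, were chosen with earlier results of these data known. Their summed level was 99.1 CPM in control and rose less than the median gene, 1.98-fold at D5 and 1.29-fold at D10. Tcf7, a transcription factor of T cells, had 131 to 305 counts in control. The 11 receptor complex and signalling genes together had 58, 12 and 65 counts there. Which cells gave these Tcf7 counts was not tested. Tcf7 rose by 1.11 at D5, and the adaptor Lcp2 rose by 2.84 at D10. Of 16 further pan-leukocyte genes 14 rose at D5 and 12 at D10, among them Dock2, which drives leukocyte migration, by 3.90 and 2.86, and Lsp1, a cytoskeletal protein, by 2.64 and 1.95. Markers of other immune cells moved alongside. Of 18 microglia and macrophage genes 10 rose at D5 and 11 at D10, and their summed level was 79.9 to 104 CPM in control, 201 to 376 CPM at D5 and 262 to 612 CPM at D10, with none of the 18 at 0 in any EAE library. Of the 9 NK genes only Klrk1 could be tested, and it rose at D5 but was not called at D10. The part of these cell types in the rise of the shared leukocyte genes was not tested. The CD3 genes, Cd4, Ctla4, Icos and Il7r were all lower in mean at D10 than at D5, whereas the microglia and macrophage sum was higher in mean.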

How the data were processed

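Values were read from RNA sequencing of 11 libraries, paired-end at 100 bases. The submitters' processing notes name HTSeq 0.6.1, SAMtools 0.1.19, TopHat2 2.0.11 with Bowtie2 2.2.1, and DESeq2, on the mm9 build. Annotation and strand use were not given in the sources used here. The authors deposited raw counts per gene, and only these were used. The line of column totals was kept out.

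Counts were tested with edgeR (4.0.16, R 4.3.3), by its quasi-likelihood test after TMM scaling and the default filter. One fit held the 9 sorted libraries and another the 5 healthy ones. P-values were adjusted by Benjamini-Hochberg across the genes of a fit, with calls under 0.05, and a log2 fold change has its standard error (SE). P-values measure the spread between pools, which the design text calls biological replicates. CPM is the raw count scaled to a library total of 1000000. Folds against 0 counts use a floor of 3 counts over the group. Transcript lengths and gene overlaps come from GENCODE on GRCm38, whose build differs from mm9, and promoters from RefSeq GRCm38.p6. The fit was tested on simulated data.

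The members and all lists were chosen with earlier results of these data known. All members were accounted for, and values in every library were given for called members and for genes of T cell kinds. Genes named from other lists were taken from the 2 called ones of highest mean CPM in each, and some of these are not reported here. Csf2, C1qa, C1qc and Trac were named after their values were seen. Alternatives were RLE size factors, no filter, DESeq2 (1.42.0), limma voom (3.58.1), a replicate block, one fit of all 11 libraries, other scalings and lengths, and leaving out each library.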

Additional observations from a re-analysis of the deposited data

How the results depend on the processing

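The number of members called higher than control was 34 at D5 and 32 to 38 over the alternatives, and 29 at D10 and 22 to 30. No member was called lower at either time under any alternative run. Leaving out 1 library gave 33 to 38 at D5 and 24 to 29 at D10. Between D10 and D5, 1 member was called without the filter, 3 with DESeq2 and 0 in every other fit. Against whole cord 3 members were called, 7 in one fit of all 11 libraries, and 3 to 6 with 1 library left out. Cd8a reversed its direction at D10 against control without control replicate 3 (-0.22) and without D10 replicate 3 (-0.19), with a range of -0.22 to 1.04 over left-out libraries, and at D10 against D5 without D5 replicate 2 (0.27) and without D10 replicate 1 (0.35), with a range of -0.76 to 0.35. Scaling totals by TMM factors of all 11 libraries moved the whole cord sums to 3.05 CPM for T cell genes and 85.4 CPM for shared leukocyte genes. With 1 library left out the T cell sums ran over 3.77 to 6.81 CPM in control, 77.0 to 111 at D5, 30.7 to 38.3 at D10 and 2.53 to 2.61 in whole cord, and the shared leukocyte sums over 13.3 to 29.8, 266 to 373, 138 to 180 and 66.8 to 77.4. The Cd4 to Cd8a ratio was 21.1 at D5 and 7.83 at D10 by union of exons, an alternative chosen after seeing the data, as was leaving out single libraries for these ratios. The cause of these changes was not tested. Cd8b1, Cxcr3 and Prf1 were too low to be tested.

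No label says that replicate numbers mark a pairing, and deviations of same-numbered D5 and D10 libraries correlated at -0.0779, -0.0570 and 0.0587. Under a replicate block 32 members were called at D5, 22 at D10, 0 between D10 and D5 and 3 against whole cord. The calls not made under it were those of Cxcr6 and Foxp3 at D5 and of Ccl5, Cd3d, Gzmb, Ifng, Il2rg, Rac2 and Tbx21 at D10.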

Other observations

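Other immune cell lists were read for comparison, with calls as in the text above. Over all genes tested, 13.2% were called higher and 10.7% lower at D5, and 8.38% and 4.99% at D10. Of 18 microglia and macrophage genes, the most abundant called ones were Lyz2, the lysozyme of myeloid cells, which rose by 2.99 at D5 and 3.77 at D10 on the log2 scale, and Ctss, the protease cathepsin S, which rose by 4.51 and 4.77. The complement genes C1qa and C1qc had log2 values of 1.66 and 2.06 at D10 against D5, neither of them called. Jchain, which joins secreted immunoglobulins and is made by plasma cells, had no control count, 183, 53 and 43 counts at D5 and 707, 285 and 128 at D10, and it was at least 112-fold and 364-fold higher. Of the 12 B and plasma cell genes 4 were tested, and Cd79a, a chain of the B cell receptor complex, was lower at D5 (log2 -2.81, adjusted p = 0.0278). Of 8 dendritic cell genes 7 were tested, and 4 rose at D5 and 2 at D10. Ccl22, a chemokine of dendritic cells, was at least 172-fold higher at D5 and 105-fold at D10.

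For the lists that follow, the background was again 13.2% called higher and 10.7% called lower at D5, and 8.38% and 4.99% at D10. Of 12 neutrophil and monocyte genes 10 were tested, and 3 rose at D5 and 2 at D10. Of 8 endothelial genes 2 rose at each time. Of 8 fibroblast genes 5 rose and 3 fell at D5, and 4 rose and 1 fell at D10. In the Th17 list of 7 genes 2 were tested, both of which rose at D5 and 1 at D10. Csf2, a cytokine gene of encephalitogenic T cells in that list, had 0 counts in every control library, 17, 10 and 8 counts at D5 and 2, 1 and 2 at D10, and was too low to be tested. Of 4 gamma-delta T cell genes with a row of their own, 2 were tested. Cd163l1 was called at both times, at least 34.6-fold higher at D5 and 16.2-fold at D10. The other tested gene was called at neither time (log2 -0.05 at D5 and -0.06 at D10). The 4 genes summed to 39.7 to 63.9 CPM in control, where only 1 of them had counts. The sum was 48.1 to 67.0 CPM at D5 and 46.9 to 59.3 CPM at D10, so the groups overlapped.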
